A study of Mus musculus with 140 samples.

Results

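TDP-43 binding and m6A modification were described on the transcripts of 10 genes for neuronal splicing regulators: Rbfox1, Rbfox2, Rbfox3, Nova1, Nova2, Celf2, Celf4, Elavl2, Elavl3 and Elavl4. They are 10 of 55450 genes of the GENCODE vM21 annotation of the mouse genome (mm10), and a cluster was given to one of them when its midpoint fell within the gene on the same strand. This rule found 64747 of the 13235198 clusters listed for 70 immunoprecipitated (IP) libraries, of which 6354 were enriched. A cluster is a stretch of RNA in which reads pile up. It is called enriched here when the deposited p-value of the IP library against its own input was 0.001 or less. The study kept peaks below that p that also had a log fold above 3 and were reproducible between male and female samples. Neither is demanded here, and counts with a log2 fold of 3 or more are given at the end. The series has 140 samples, since each IP library has an input library, and the lists hold no reads, so every value below is a number of clusters or a deposited fold over input. The base of the deposited log fold is not stated in the files and was taken as 2.

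The Rbfox, Nova, Celf and Elavl proteins bind RNA and set which exons neurons keep in their mRNAs. Rbfox proteins read a short motif beside alternative exons, Nova proteins read YCAY clusters, CELF proteins read GU-rich elements, and the neuronal ELAVL (Hu) proteins read AU- and U-rich elements and also govern mRNA stability, translation and the choice of poly(A) site. TDP-43 is a nuclear RNA-binding protein that prefers GU repeats and binds much in long introns and in 3′ UTRs, and m6A is the methyl mark that METTL3 places on mRNA, mostly in the last exon and near stop codons. Rbfox3 is the neuronal nuclear antigen NeuN, and transcripts of several of these genes are among the longest in the brain.

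Striatum and cortex came from R6/2 mice of 3 months, labelled R62 and of the line B6CBA-Tg(HDexon1)62Gpb/3J, and from non-transgenic (NT) mice of that age, and each region was assayed by TDP-43 eCLIP-seq and by m6A eCLIP-seq. Each combination of assay, region and genotype had 8 IP libraries, from 4 males and 4 females. R6/2 mice carry a transgene with exon 1 of human HTT and an expanded CAG repeat, a fragment model of Huntington's disease rather than a full-length gene. In a further experiment, C57Bl/6J males were injected into the cerebral ventricles with 500 ug of a TDP-43 antisense oligonucleotide (ASO), or with PBS alone, at 5 weeks of age, and m6A was assayed 2 weeks later in cortex, with 3 libraries a group and an age of 2 months in the labels. The labels name cortex for these libraries, whereas their treatment text names striatum.

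Libraries listed 133185 to 260687 clusters, of which 4929 to 99040 were enriched. TDP-43 libraries of striatum had the fewest, 6768 to 24430 enriched clusters in R6/2 and 4929 to 24127 in NT. Their share of listed clusters in introns was 18.8 to 47.4% in R6/2, with all 4 R6/2 females at 37.7% or above, and 16.1 to 25.7% in NT. Results in striatum are therefore also given without the libraries above 30%. Tardbp, the gene of TDP-43, had 7, 8 and 9 enriched m6A clusters in ASO libraries, against 18, 17 and 25 in PBS libraries, counts that are lower with the ASO but do not measure its mRNA level. In the same IP libraries, medium spiny neuron markers had summed levels of 39.1 to 54.7 normalized enriched TDP-43 clusters in R6/2 striatum and 87.4 to 189 in NT striatum. These were bulk tissues, so fewer cells of a type and less RNA per cell cannot be told apart. p-values measure the spread between these libraries, and the labels do not link the cortex and striatum of one mouse. In the ASO experiment the cluster intervals did not vary within a treatment, so their spread is not measured there.

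The windows below show where the 2 marks sat on the members, and they were chosen because the results turn on those sites or because the site was the most recurrent one of its member in exons or in introns. Recurrence of the intronic TDP-43 windows was counted on clusters with a log2 fold of 1 or more. Each is 29 bases of the transcript strand, 5′ to 3′, read from the RefSeq GRCm38.p6 genome, and capitals mark a UGUGU in TDP-43 windows and a DRACH in m6A windows. DRACH is AC preceded by A or G, itself preceded by A, G or U, and followed by A, C or U. None is given for Celf4.
Elavl3 TDP-43 3′ UTR, chr9:22018425-22018453, minus strand: agagagagagagagagagagagagagaga
Rbfox2 TDP-43 3′ UTR, chr15:77083652-77083680, minus strand: aguggaucuggugcugauggcugggggga
Rbfox3 TDP-43 3′ UTR, chr11:118490967-118490995, minus strand: guggggacgcggccagacacuggggaaga
Nova2 TDP-43 3′ UTR, chr7:18960042-18960070, plus strand: aggccagugugaucugguguagaguucag
Elavl2 TDP-43 3′ UTR, chr4:91251953-91251981, minus strand: uaacaccugagcuuUGUGUgauguaaaua
Celf2 TDP-43 intron, chr2:7318604-7318632, minus strand: caugugaguuuaUGUGUgaucgugugaau
Rbfox3 TDP-43 intron, chr11:118595934-118595962, minus strand: cucagugcaaugggagagagggcuuccac
Rbfox3 m6A 3′ UTR, chr11:118489809-118489837, minus strand: uguaugcuuccacggugUGACCauucaaa
Rbfox2 m6A 3′ UTR, chr15:77081434-77081462, minus strand: acgggcauuuuaUGACUcuguuagaggau
Nova2 m6A 3′ UTR, chr7:18963927-18963955, plus strand: caguauUAACUcGGACAgcuggcuggggu
Celf2 m6A 5′ UTR, chr2:7185472-7185500, minus strand: cugcagagaggagugauccAGACAcucag
Nova1 m6A CDS, chr12:46700658-46700686, minus strand: aucuccuuaugcAAACAcugcugaagugu
Elavl3 m6A 5′ UTR, chr9:22051950-22051978, minus strand: gggcgagaggagaGGACCcaucacccggc
Elavl4 m6A 3′ UTR, chr4:110206170-110206198, minus strand: gccuaaguauuaAAACAuuggauuauccu

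The 10 genes span very different lengths. Rbfox1 covers 1526.2 kb and holds 4.4 kb of exon, and Celf2 covers 969.9 kb with 25.88 kb of exon. Nova2 and Elavl3 are compact, with 39.4 and 37.0 kb. Of the 10, 8 share part of their span with another annotated gene on the same strand, all but Nova2 and Elavl4, and clusters in such stretches could belong to either. Rbfox1 alone had 24589 listed clusters but only 264 enriched ones, whereas Celf4 had 4337 listed and 1399 enriched, the most of any member.

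TDP-43 and m6A were spread over the members in different proportions. Nova1 had 7 enriched TDP-43 clusters and 781 enriched m6A clusters over all libraries, and Elavl4 had 5 and 85. Rbfox2 had the opposite balance, with 665 enriched TDP-43 clusters over 32 libraries and 285 enriched m6A clusters over 38. Rbfox1 was the other member with more TDP-43 than m6A clusters, 184 and 80. The lists therefore placed TDP-43 mainly on Rbfox2, Celf4, Nova2, Rbfox3 and Elavl3, and m6A mainly on Celf4, Nova1, Nova2 and Elavl3.

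Levels can be compared between genes only per length, and here the measure is normalized enriched clusters per kb of exon, where normalized means divided by a library factor that sets the median gene equal. Enriched clusters in introns are included in the count, so the measure is not one of exons alone. In TDP-43 libraries of cortex, Rbfox2 had 3.64 ± 0.388 in R6/2 and 3.12 ± 0.326 in NT (SD, n = 8 each), the highest level of the 10. Celf4 had 2.41 ± 0.615 in R6/2 and 2.01 ± 0.325 in NT. Nova2 had 2.34 ± 0.227 in R6/2 and 1.98 ± 0.308 in NT, and Rbfox3 had 2.15 ± 0.413 in R6/2 and 1.97 ± 0.396 in NT. Celf4, Nova2 and Rbfox3 are neighbours in that order that do not differ beyond their spread. Elavl3 followed with 1.94 ± 0.311 in R6/2 and 1.37 ± 0.287 in NT, and Rbfox1 with 1.30 ± 0.222 in R6/2 and 1.40 ± 0.437 in NT. Elavl2, Celf2, Nova1 and Elavl4 lay at or below 0.328 in both genotypes. In striatum the order among the better bound genes was closer, and in NT it ran with Rbfox2 at 1.46 ± 0.549, Rbfox3 at 1.42 ± 0.534, Rbfox1 at 1.33 ± 0.411, Celf4 at 0.824 ± 0.0651, Nova2 at 0.767 ± 0.206 and Elavl3 at 0.648 ± 0.206. The first 3 of these are within each other's spread, and so are the last 3.

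For m6A the order was another one. In cortex Celf4 led with 2.81 ± 0.575 normalized enriched clusters per kb of exon in R6/2 and 3.18 ± 0.354 in NT, ahead of Nova1 with 2.25 ± 0.372 in R6/2 and 2.20 ± 0.237 in NT. Nova2 had 1.85 ± 0.489 in R6/2 and 1.71 ± 0.362 in NT, and Elavl3 had 1.73 ± 0.442 in R6/2 and 1.74 ± 0.691 in NT, a pair within each other's spread. Rbfox3 had 0.922 ± 0.242 in R6/2 and 1.33 ± 0.344 in NT, and Rbfox2 had 1.14 ± 0.241 in R6/2 and 0.905 ± 0.303 in NT, so these neighbours had opposite orders in the genotypes and overlapped in both. Elavl4, Rbfox1, Elavl2 and Celf2 lay at or below 0.487 in both genotypes. In the ASO experiment Rbfox3 stood among the highest, at 3.68 ± 0.86 in ASO and 3.41 ± 0.678 in PBS (SD, n = 3 each), close to Celf4 at 3.56 ± 0.181 in ASO and 3.65 ± 0.123 in PBS. Levels were normalized within each comparison, so they are not set against each other across experiments.

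Most enriched clusters of the members lay in 3′ UTRs. TDP-43 clusters of the members were there for 82.1% in R6/2 striatum and 87.3% in NT striatum, against 29.9% and 36.6% over all genes. In cortex the share was 75.2% in R6/2 and 77.1% in NT, against 33.1% and 36.3% over all genes, and coding sequence (CDS) held 18.4% in R6/2 and 15.4% in NT. m6A clusters of the members lay in 3′ UTRs for 70.9% in R6/2 striatum and 69.4% in NT striatum, and 68.2% in R6/2 cortex and 71.4% in NT cortex, against 43.6 to 46.5% over all genes in these 4 groups. No test was made of these shares. Single members departed from the pattern. Of the enriched m6A clusters on Rbfox1 in NT cortex, 14 of 15 were intronic (93.3%), and of those on Nova1, 75 of 147 lay in CDS (51%). Elavl3 had 25% of its enriched TDP-43 clusters in the 5′ UTR in NT cortex, against 6.92% over all genes.

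The first comparison asked whether the number of enriched TDP-43 clusters on these transcripts differed in the R6/2 striatum. Elavl3 was the member called, and RNA levels of the genes were not part of the fit. Elavl3 encodes a neuronal Hu protein, HuC. It had 8.99, 8.19, 10 and 6.2 normalized enriched clusters in R6/2 males and 8.93, 7.96, 10.9 and 5.92 in R6/2 females, against 2.52, 5.9, 6.19 and 5.74 in NT males and 3.79, 3.49, 3.06 and 5.01 in NT females. Only the lowest R6/2 value lay under the highest NT value. The mean was 8.39 ± 1.72 in R6/2 and 4.46 ± 1.42 in NT (SD, n = 8 each), from 4 to 14 clusters a library in R6/2 and 1 to 9 in NT. The log2 change was 0.87 (SE 0.20), with a limma adjusted p of 0.00766.

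Elavl3 was 1 of 6 members that could be tested there, and over all genes 13.6% of 2333 tested were called, 5.92% as higher and 7.67% as lower. The median log2 change was 0.035 over the 6 members and -0.05 over all genes. The other 5 members did not pass. Nova2, a splicing factor of many synaptic mRNAs, had lowest, median and highest values of 0, 7.39 and 9.68 normalized enriched clusters in R6/2, against 2.52, 7.01 and 7.88 in NT, a log2 change of -0.43 (SE 0.51, adjusted p = 0.655). Rbfox1 had 3.39, 4.28 and 6.82 in R6/2, against 4.08, 5.40 and 10.1 in NT, a log2 change of -0.26 (SE 0.20, adjusted p = 0.47). For both the genotypes overlapped. Celf4, Rbfox2 and Rbfox3 had log2 changes of 0.26, 0.09 and -0.02. Nova1, Celf2 and Elavl2 were not tested, since a gene had to reach 2 enriched clusters in 50% or more of the libraries, and they had at most 1, 5 and 1 clusters in a library, and Elavl4 had 0 enriched TDP-43 clusters in all 16.

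The Elavl3 call in striatum stayed under 0.05 whichever library was left out, with log2 changes of 0.74 to 0.95 and adjusted p of 0.00663 to 0.0195. Without libraries above 30% intronic clusters, which leaves no R6/2 female, the log2 change was 0.88 with an adjusted p of 0.191, and in males alone it was 0.73 with 0.393. All listed Elavl3 clusters, enriched or not, had a log2 change of 0.04 (adjusted p = 0.753). With a p of 1e-05 or less the adjusted p was 0.0956, with a log2 fold of 3 or more it was 0.756, and with the intronic share as covariate it was 0.0708. In the same libraries 7 of 9 tested medium spiny neuron markers were lower in R6/2, and 1 of 5 tested pan-neuronal markers was higher, with a summed level of 63.3 to 110 in R6/2 and 59.8 to 72.5 in NT. Their part in the result was not tested.

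In the cortex Elavl3 again changed in TDP-43 libraries. It had 14.4, 10.6, 12.7 and 12.8 normalized enriched clusters in R6/2 males and 11, 14.7, 13.4 and 17.3 in R6/2 females, against 9.76, 8.03, 6.86 and 7.88 in NT males and 10.7, 11.7, 12.2 and 8.19 in NT females. The genotypes overlapped between 10.6 and 12.2, and in males they did not. The share of all genes without overlap in males was not counted. The log2 change was 0.49 (SE 0.12), with a limma adjusted p of 0.0229. It was the only call among 8 members tested, where 7.1% of 3904 genes were called, 1.46% as higher and 5.64% as lower, with a median log2 change of 0.17 over the members and -0.09 over all genes. This call was lost without NT female 4 and held in the other 15 of 16 fits that each left out 1 library, with log2 changes of 0.44 to 0.55 over the 16. It was also lost under 10 other settings. The adjusted p was 0.0721 with a p of 1e-05 or less, 0.739 with a log2 fold of 3 or more, 0.233 by bases, 0.114 by stretches, 0.123 with the intronic share as covariate and 0.0893 without libraries above 30% intronic clusters. It was 0.0806 in males, 0.485 in females, 0.0728 with the replicate number as a block, and 0.991 by all listed clusters, whose log2 change was 0.00.

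The other cortical members did not pass. Nova2 had lowest, median and highest values of 17.2, 20 and 21.7 normalized enriched TDP-43 clusters in R6/2, against 12.7, 16.9 and 19.7 in NT, a log2 change of 0.25 (SE 0.10, adjusted p = 0.16). Celf4, a translation and stability regulator of excitatory neurons, had 15.8, 19.2 and 32.4 in R6/2, against 13.1, 18.1 and 20.01 in NT, a log2 change of 0.24 (adjusted p = 0.333), and its highest value was that of R6/2 female 4. Rbfox2 had 25.7, 29.9 and 34.1 in R6/2, against 22.3, 24.9 and 29.8 in NT, a log2 change of 0.22 (SE 0.09, adjusted p = 0.14). For all 3 the medians were higher in R6/2 and the ranges overlapped. Rbfox3, Elavl2, Rbfox1 and Celf2 had log2 changes of 0.12, -0.17, -0.06 and -0.01, and Nova1 and Elavl4 were below the minimum. In these libraries all 4 tested medium spiny neuron markers were lower, with a summed level of 2.16 to 8.44 in R6/2 and 22.2 to 33.5 in NT and with Drd1, Drd2 and Tac1 at 0, and 1 of 5 tested excitatory markers was lower. Of 6 tested pan-neuronal markers 1 was higher, with a summed level of 112 to 231 in R6/2 and 108 to 170 in NT. Their part was not tested.

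The log2 change of Elavl3 in cortex minus that in striatum was -0.48 (SE 0.24, adjusted p = 0.502), so no difference between the regions was shown. For TDP-43, limma called 0 of 6 members for such a difference, with 0 at an unadjusted p under 0.05, and 0.0658% of 3040 genes (0.0658% with a lower change in cortex). For m6A it called 0 of 10 members, again with 0 at an unadjusted p under 0.05, and 0.258% of 9312 genes (0.183% with a higher and 0.0752% with a lower change in cortex).

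**Figure D1:**
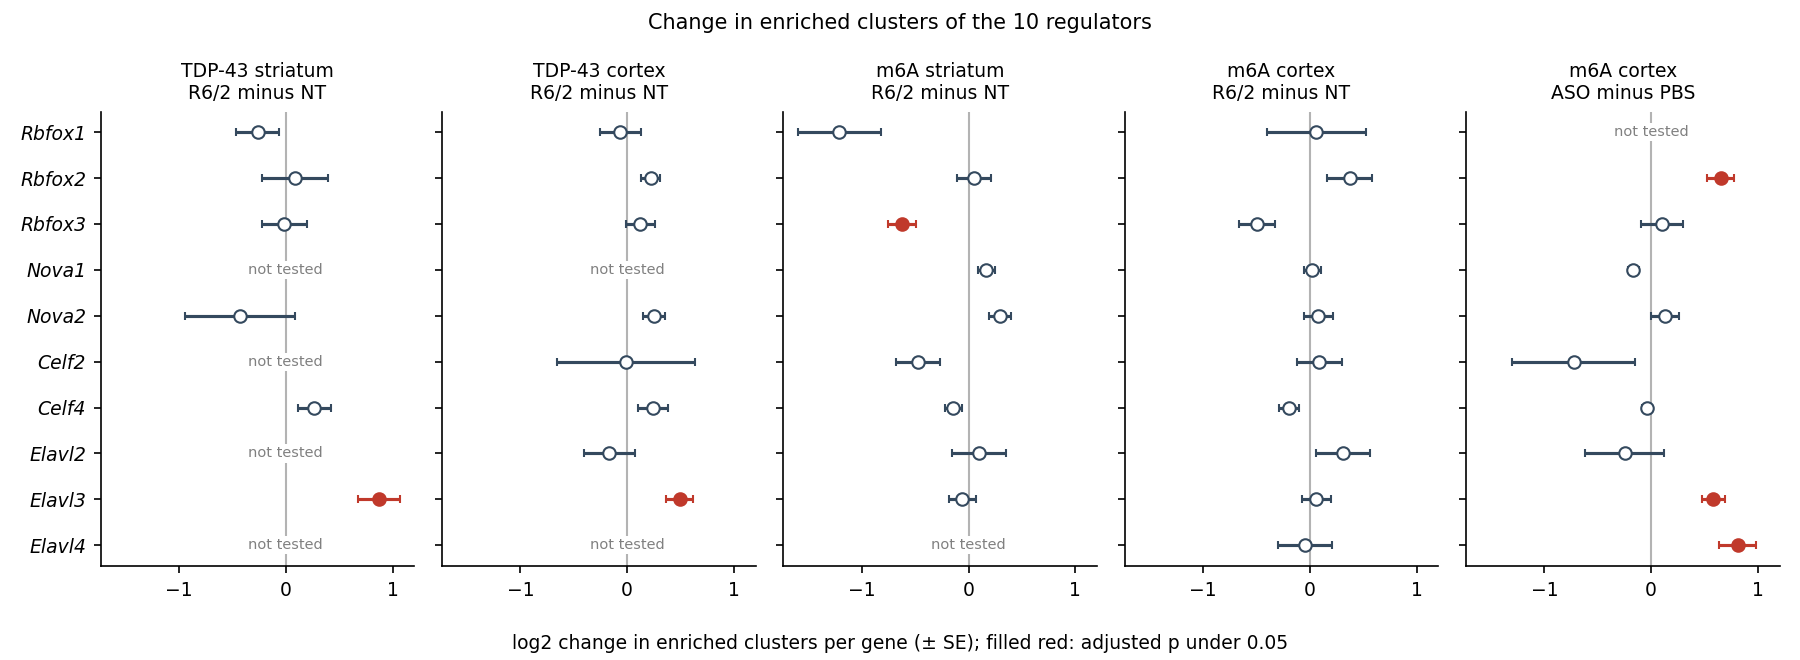
Log2 change in normalized enriched clusters per gene for each regulator in 5 comparisons, with points for the limma estimate, bars for 1 SE, and filled red points for an adjusted p under 0.05. Elavl3 is called in both TDP-43 panels (0.87 and 0.49), Rbfox3 in the striatal m6A panel (-0.62), and Rbfox2, Elavl3 and Elavl4 in the ASO panel.

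For m6A in the striatum Rbfox3 changed, and it was lower in R6/2. Rbfox3, the NeuN gene, had 8.73, 9.58, 12.0 and 5.89 normalized enriched m6A clusters in R6/2 females and 4.61, 5.32, 6.12 and 4.54 in R6/2 males, against 16.9, 14.9, 17.9 and 16.04 in NT females and 5.31, 8.14, 7.58 and 6.44 in NT males. In females the genotypes did not overlap, and in males the lowest NT value lay under the highest R6/2 values. The share of all genes without overlap in females was not counted. The log2 change was -0.62 (SE 0.13), with a limma adjusted p of 0.00405. It was called whichever library was left out, with log2 changes of -0.69 to -0.52, and in males alone it was -0.38 with an adjusted p of 0.328. Females had more clusters than males in both genotypes, and without the term for sex the adjusted p was 0.162 at the same log2 change. The genotype change in females minus that in males was -0.49 (SE 0.25, adjusted p = 0.865).

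Rbfox3 was the only call among 9 members tested for m6A in striatum, where 9.64% of 9734 genes were called, 5.82% as lower and 3.81% as higher. The median log2 change was -0.058 over the members and 0.015 over all genes. Rbfox1 had the most negative log2 change of the 9 but did not pass, with lowest, median and highest values of 0, 1.48 and 5.14 normalized enriched m6A clusters in R6/2, against 1.99, 3.65 and 4.72 in NT, a log2 change of -1.21 (SE 0.39, adjusted p = 0.0513). One R6/2 library, female 3, held its highest value. Celf2, a regulator of splicing and mRNA stability, had 3.19, 7.29 and 10.4 in R6/2, against 6.33, 8.71 and 14.1 in NT, a log2 change of -0.47 (SE 0.21, adjusted p = 0.171), with wide overlap. Nova2 and Nova1 had log2 changes of 0.29 and 0.17 (adjusted p = 0.0831 and 0.219), and Celf4, Elavl2, Elavl3 and Rbfox2 had -0.14, 0.10, -0.06 and 0.05. Elavl4 was not tested. In these libraries 9 of 10 medium spiny neuron markers were lower, at a summed level of 115 to 132 in R6/2 and 190 to 231 in NT, 0 of 4 tested pan-neuronal markers were called, at 38.6 to 58.9 in R6/2 and 39 to 60.1 in NT, and the part of cell markers in the result was not tested.

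The Rbfox3 result depended on how clusters were counted. The number of all listed Rbfox3 clusters had a log2 change of 0.10, with R6/2 male 3 at 158 listed clusters and the other R6/2 libraries at 25.2 to 80.7. The number of bases covered by enriched clusters had a log2 change of -0.32 (adjusted p = 0.0826), and when abutting enriched clusters were counted as 1 stretch it was -0.39 (adjusted p = 0.155).

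In the cortex limma called 0 of 10 members for m6A, with 2 at an unadjusted p under 0.05, against 6.17% of 9071 genes called (2.44% as higher and 3.74% as lower) and 1916 at an unadjusted p under 0.05. Rbfox3 had lowest, median and highest values of 3.11, 5.81 and 6.91 normalized enriched m6A clusters in R6/2, against 4.90, 7.45 and 11.1 in NT, a log2 change of -0.49 (SE 0.17, adjusted p = 0.0817). Rbfox2, a broadly expressed Rbfox protein, had 6.21, 9.84 and 11.8 in R6/2, against 2.22, 8.08 and 10.1 in NT, a log2 change of 0.37 (SE 0.21, adjusted p = 0.323). Elavl2, the gene of HuB, had 2.05, 3.49 and 4.44 in R6/2, against 1.01, 2.75 and 5.64 in NT, a log2 change of 0.31 (SE 0.25, adjusted p = 0.511). For these genes the genotypes overlapped. Celf4 had a log2 change of -0.20 (adjusted p = 0.227), and Rbfox1, Nova1, Nova2, Celf2, Elavl3 and Elavl4 had 0.06, 0.02, 0.08, 0.09, 0.06 and -0.05. The median was 0.06 over the members and 0.02 over all genes. Of 8 tested medium spiny neuron markers 6 were lower, at a summed level of 33.8 to 50.2 in R6/2 and 62.9 to 73.8 in NT. Of 8 excitatory markers 1 was lower, and 0 of 4 tested pan-neuronal markers were called. The part of these markers was not tested.

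**Figure D2:**
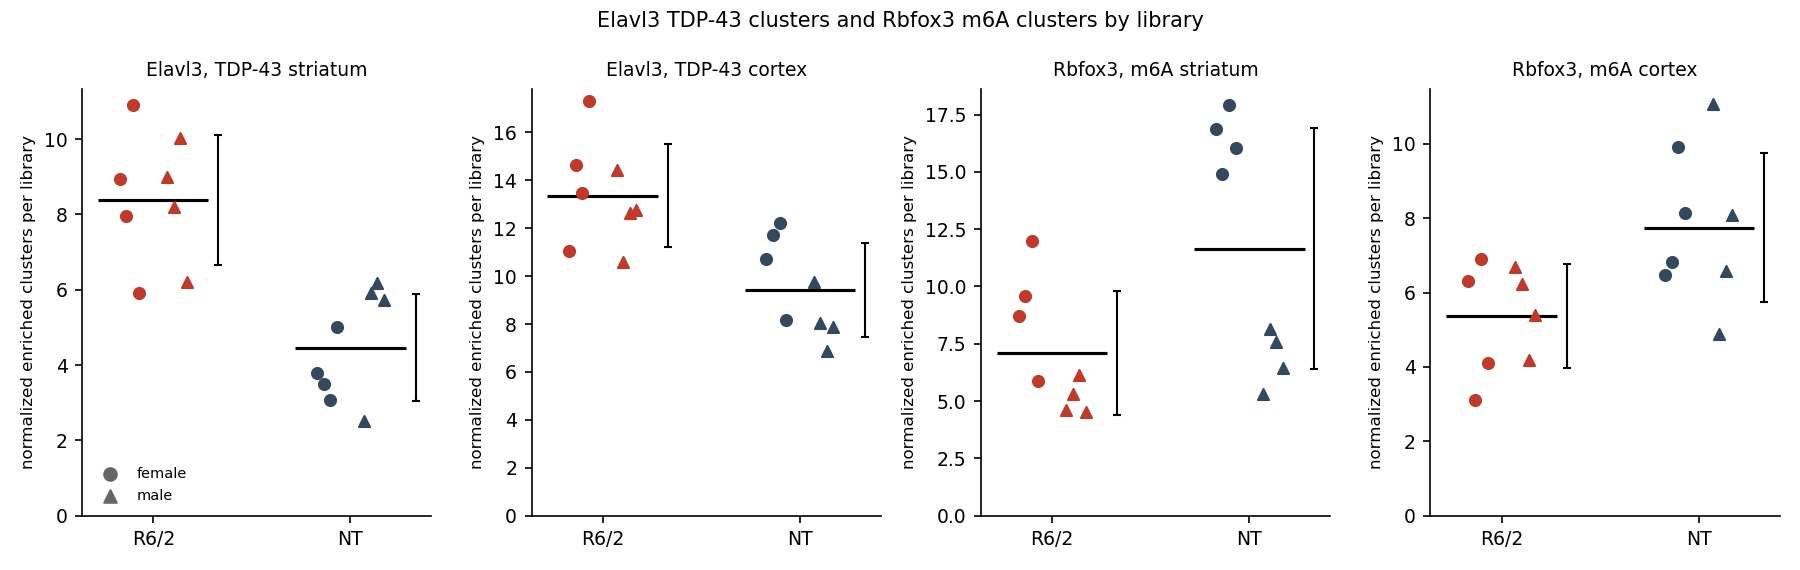
Normalized enriched clusters per library for Elavl3 (TDP-43) and Rbfox3 (m6A) in R6/2 and NT, with circles for females, triangles for males, and a line and bar for the mean ± SD of 8 libraries. Elavl3 averages 8.39 in R6/2 and 4.46 in NT striatum, and Rbfox3 is separated by genotype in striatal females only.

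In the ASO experiment 3 members were called, all of them with more enriched m6A clusters under the TDP-43 ASO. These calls depended on how clusters were counted, as given below. Rbfox2 had 5.35, 6.21 and 7.36 normalized enriched m6A clusters in ASO libraries, against 3.86, 3.94 and 3.61 in PBS libraries, a log2 change of 0.65 (SE 0.13, adjusted p = 0.0132 in limma). Elavl3 had 16.1, 13.5 and 13.7 in ASO, against 8.68, 8.87 and 10.8 in PBS, a log2 change of 0.58 (SE 0.11, adjusted p = 0.0128 in limma). Elavl4, the gene of HuD, had 4.28, 4.14 and 4.21 in ASO, against 2.89, 1.97 and 1.81 in PBS, a log2 change of 0.81 (SE 0.17, adjusted p = 0.0172 in limma). The groups did not overlap for these 3, and the counts behind Elavl4 were 4, 4 and 4 clusters in ASO and 3, 2 and 2 in PBS. Nova1, which was not called, did not overlap either and was lower, at 20.71 to 22.08 in ASO and 23.14 to 25.62 in PBS. How many of all genes were without overlap was not counted. The Elavl4 call was lost in 3 of 6 fits that each left out 1 library, without ASO 2, ASO 3 or PBS 2, with log2 changes of 0.69 to 0.97 over the 6, and those of Rbfox2 and Elavl3 held in 6 of 6. Over all genes 30.2% of 10149 were called, 13.4% as higher and 16.8% as lower, so 3 of 9 members is close to the share called in either direction. The median log2 change was 0.102 over the members and -0.016 over all genes.

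The other members did not pass. Celf2 had 2.14, 6.21 and 10.5 normalized enriched m6A clusters in ASO, against 5.79, 8.87 and 14.4 in PBS, a log2 change of -0.72 (SE 0.58, adjusted p = 0.388). Its libraries spread widely within each treatment. Nova1 had a log2 change of -0.17 (SE 0.05, adjusted p = 0.0519), and Elavl2, Nova2, Rbfox3 and Celf4 had changes of -0.25, 0.13, 0.10 and -0.04. Rbfox1 was not tested. In these libraries 2 of 6 microglia markers were higher, with a summed level of 72.5 to 76.8 normalized enriched m6A clusters in ASO and 66.8 to 71.9 in PBS. Of 6 astrocyte markers 1 was higher and 2 were lower, at 97.3 to 102 in ASO and 98.4 to 109 in PBS. Of 6 pan-neuronal markers 1 was higher and 1 lower, at 87.3 to 106 in ASO and 85.8 to 115 in PBS, and 1 of 8 excitatory markers was higher, at 140 to 150 in ASO and 131 to 138 in PBS. Their part in the result was not tested.

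The 3 libraries of a treatment carried the same cluster intervals, scored separately, and the intervals differed between the treatments, so that a longer stretch cut into more intervals counts more. Rbfox2 had 35 listed intervals in ASO and 24 in PBS, Elavl3 had 39 and 33, and Elavl4 had 19 and 17. Nova1, which was lower, had 25 in ASO and 34 in PBS. Rbfox3, Nova2 and Elavl2, which were not called, had interval numbers and log2 changes in opposite directions. Where abutting enriched clusters were counted as 1 stretch, none of the 3 calls held. Elavl3 had 4 to 5 stretches in ASO and 5 to 7 in PBS, Rbfox2 had 3 to 4 in ASO and 3 to 4 in PBS, and Elavl4 had 1, 1 and 1 in ASO and 1 to 2 in PBS. By bases covered, Rbfox2 and Elavl4 had log2 changes of -0.06 and -0.12. The part of the interval boundaries in the result cannot be told apart from the treatment. The limma p-values, the fits that left out 1 library and the share of all genes called rest on scores over these fixed intervals. They do not measure how the intervals would vary between mice.

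Several members have very long introns, in which enriched clusters were few, so all listed TDP-43 clusters with the midpoint in an intron were counted as well. The measure is not one of enrichment, since the median log2 fold over input of the members' intronic clusters lay at -1.01 to -0.20 in R6/2 cortex libraries and -1.46 to -0.60 in NT cortex libraries. In the cortex Celf2 was lower in R6/2. It had lowest, median and highest values of 275, 320 and 338 normalized intronic clusters in R6/2, against 358, 403 and 504 in NT. The genotypes did not overlap, with a mean of 316 ± 19.96 in R6/2 and 417 ± 52.7 in NT (SD, n = 8 each), whereas the raw numbers ran over 305 to 416 in R6/2 and 292 to 531 in NT. The log2 change was -0.39 (SE 0.08), with a limma adjusted p of 0.0032, and it was called whichever library was left out (-0.42 to -0.34). When libraries were scaled by their total instead, it was -0.24 with an adjusted p of 0.0794. How many of all genes were without overlap was not counted. In m6A libraries, normalized intronic Celf2 clusters ran over 53.6 to 124.6 in R6/2 cortex and 87.62 to 181.2 in NT cortex. In striatum they ran over 51.59 to 92.35 in R6/2 and 82.23 to 160.9 in NT. Lower values in R6/2 were thus not particular to TDP-43 libraries, and this was not tested.

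Celf2 was 1 of 6 members tested on cortical introns, where 13.8% of 1259 genes were called, 6.35% as lower and 7.47% as higher, with a median log2 change of -0.159 over the members and 0.018 over all genes. Rbfox3 had 96.8, 132 and 149 normalized intronic clusters in R6/2, against 121, 140 and 181 in NT, a log2 change of -0.21 (SE 0.11, adjusted p = 0.182). Elavl3 had 9.81, 13.3 and 19.5 in R6/2, against 8.81, 16.1 and 25.1 in NT, a log2 change of -0.17 (adjusted p = 0.528). Rbfox1, the longest of the members, had 426, 466 and 582 in R6/2, against 452, 526.2 and 617 in NT, a log2 change of -0.15 (SE 0.08, adjusted p = 0.235). Rbfox2 and Celf4 had changes of -0.04 and 0.00. Nova1, Nova2, Elavl2 and Elavl4 had too few intronic clusters to be tested in either region.

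In the striatum Rbfox3 was lower, with lowest, median and highest values of 64.7, 111 and 136 normalized intronic clusters in R6/2, against 97.5, 135 and 194 in NT. The genotypes overlapped, with a log2 change of -0.46 (SE 0.16) and a limma adjusted p of 0.0287. It was 1 of 6 members tested, where 39.9% of 948 genes were called, 14.2% as lower and 25.6% as higher, and the median was -0.227 over the members and 0.11 over all genes. Elavl3 had 6.78, 10.1 and 14.8 in R6/2, against 10.1, 13.4 and 19.5 in NT, a log2 change of -0.37 (SE 0.16, adjusted p = 0.0632). Celf2 had 163, 260 and 295 in R6/2, against 212, 282 and 390 in NT, a log2 change of -0.27 (SE 0.13, adjusted p = 0.106), and Rbfox1, Rbfox2 and Celf4 had -0.18, 0.10 and 0.18. Scaled by the library total the log2 change of Rbfox3 was -0.05 (adjusted p = 0.818), without libraries above 30% intronic clusters it was -0.62 (adjusted p = 0.244), and it was called in 11 of 16 fits with 1 library left out, being lost without R6/2 male 2, 3 or 4 or NT male 3 or 4. The intronic share of a library differed between the genotypes here, as given above, and its part was not tested.

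**Figure D3:**
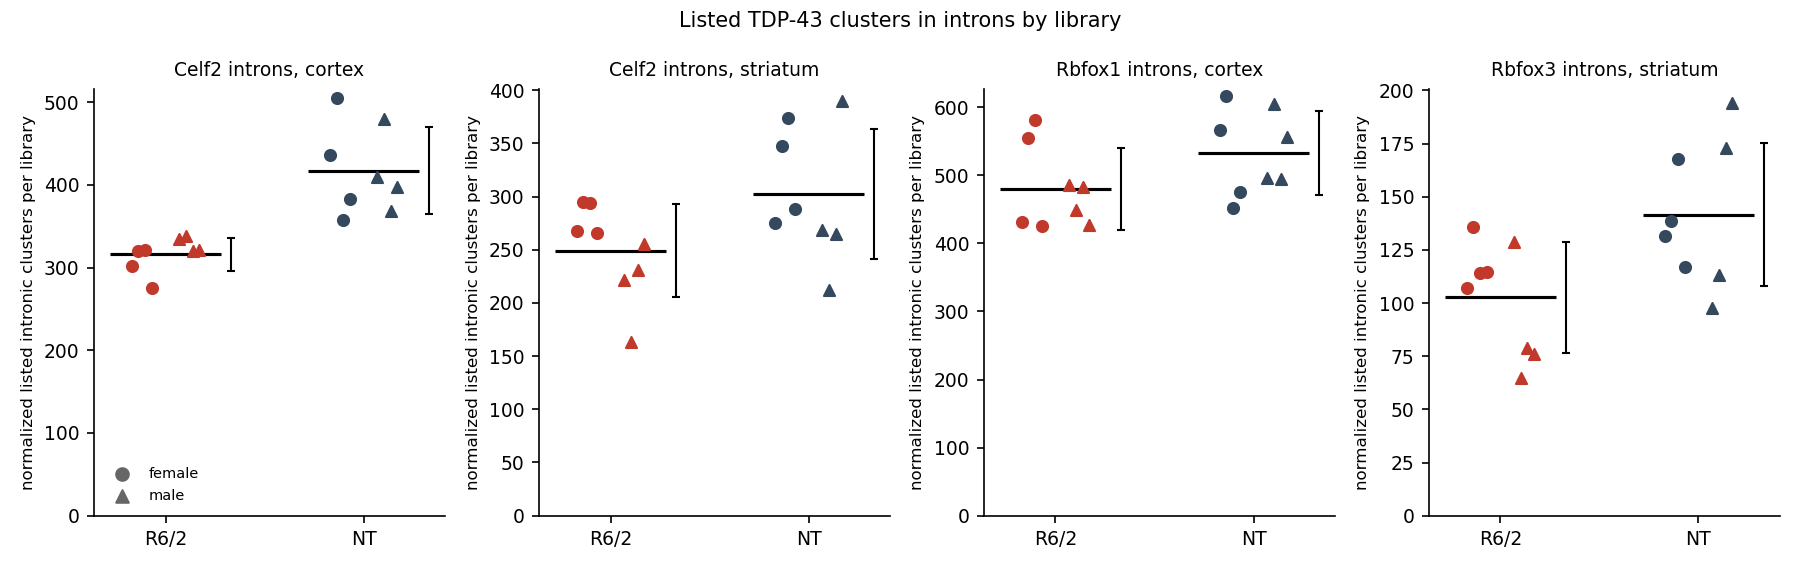
Normalized listed TDP-43 clusters in introns per library for Celf2 in cortex and striatum, Rbfox1 in cortex and Rbfox3 in striatum, in R6/2 and NT, with circles for females, triangles for males, and a line and bar for the mean ± SD of 8 libraries. Celf2 in cortex lies at 275 to 338 in R6/2 and 358 to 504 in NT, and the other 3 panels overlap.

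The motif of TDP-43 was searched as UGUGU, on the transcript strand and, for comparison, on the other strand, and a window counted once however many matches it held. Among the listed intronic TDP-43 clusters of the members, the share with a UGUGU in the 101 bases around the cluster's middle went with the log2 fold over input. It was 21.1% of 14352 clusters under -1, 23.7% of 10698 between -1 and 0, 26% of 8796 between 0 and 1, 34.7% of 1907 between 1 and 2, and 44.9% of 263, or 118 clusters, at 2 or more. On the other strand the share ran the other way, with 25.8, 16.4, 14.1, 13.6 and 6.84% in the same bins. Intronic m6A clusters of the members had 20.6, 16.5, 15.5, 14.9 and 17.1%. These are shares of clusters pooled over libraries, and clusters at 1 place recur in several of them, so no test is given. They are also pooled over members, which differ in both values. In NT cortex the median of the library medians was -1.63 for Celf2, with UGUGU at 22%, and 0.28 for Rbfox3, at 37.1%. Elavl4 departed from that order, with 0.33 and 19%. The part of the mix of genes in each bin was not tested.

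Per library, 19.5 to 25.6% of the members' intronic clusters had a UGUGU in R6/2 cortex and 25.5 to 30.5% in NT cortex, against 18.2 to 26.2% and 24.1 to 33.3% over all genes. For the members the genotypes nearly separated, and the shares over all genes moved alike. In striatum the ranges were 17.9 to 26.5% in R6/2 and 18.7 to 30.5% in NT. In Celf2 introns of cortex the pooled share was 19.4% in R6/2 and 22% in NT, and in Rbfox3 introns it was 32.2% in R6/2 and 37.1% in NT. For the intronic windows printed above, only clusters with a log2 fold of 1 or more were counted, and the medians are over those clusters. The Celf2 intronic window, with UGUGU, recurred in 9 of 32 TDP-43 libraries with a median log2 fold of 1.62. The Rbfox3 intronic window recurred in 28 of 32 with a median log2 fold of 2.87 and holds no UGUGU.

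**Figure D4:**
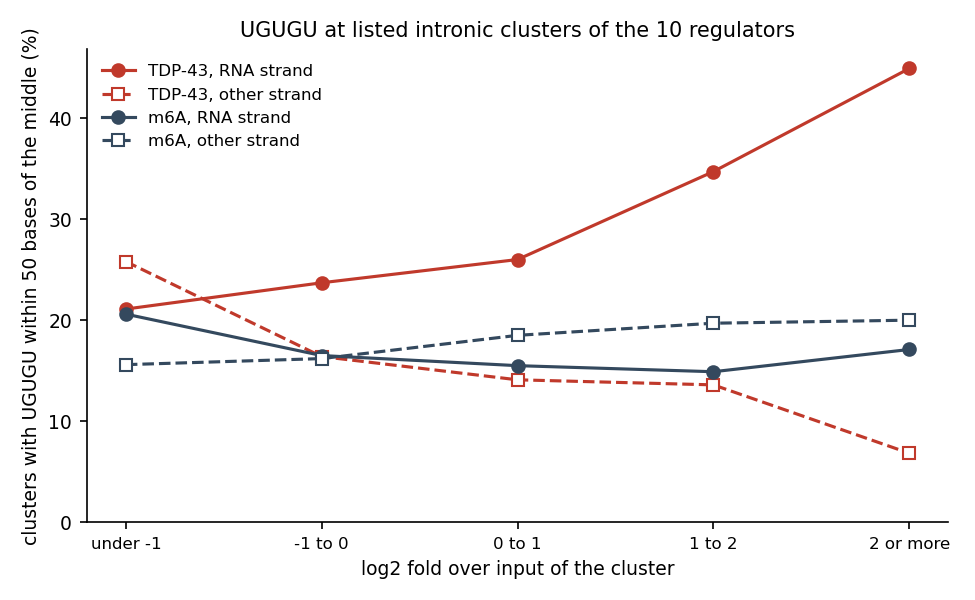
Percentage of the members' listed intronic clusters with a UGUGU within 50 bases of the middle (vertical axis) by the cluster's log2 fold over input (horizontal axis), for TDP-43 in red and m6A in dark blue, with solid lines for the transcript strand and dashed lines for the other strand. The TDP-43 share on the transcript strand is 21.1% in the lowest bin and 44.9% in the highest.

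Exonic sites were searched for UGUGU as well. A site is a stretch of 1 strand on which 4 or more of the 16 libraries of an assay and region have enriched clusters, and each was judged in a window of 101 bases around its middle. UGUGU occurred in the window of 4 of 54 TDP-43 sites of the members in striatum (7.41%), against 13.3% of 18547 sites of all genes, and in 3 of 88 in cortex (3.41%), against 13.7% of 37155. Of the members' enriched exonic TDP-43 clusters, 178 of 2415 had a UGUGU in such a window (7.37%), against 15.5% of those not enriched, and on the other strand the shares were 2.44% of the enriched and 13.5% of those not enriched. In the printed windows of Elavl3, Rbfox2, Rbfox3 and Nova2 it is absent, and in that of Elavl2 it is present. The Elavl3 window, 63 bases past the stop codon, is a GA repeat, a stretch of low complexity in which reads from other such repeats may have been placed. A DRACH occurred in the window of 44 of 50 m6A sites of the members in striatum (88%), against 93.9% of 40976 sites of all genes, and in 46 of 48 in cortex (95.8%), against 94.3% of 37877.

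The overlap of m6A sites with TDP-43 sites is given as a description, with no test. In striatum 15 of 50 m6A sites overlapped a TDP-43 site (30%), against 3593 of 40985 over all genes (8.77%), and in cortex 18 of 48 did (37.5%), against 6262 of 37888 (16.5%). The overlaps in cortex were on Rbfox2 (5 of 8 sites), Nova2 (5 of 8), Celf4 (5 of 9), Elavl3 (2 of 4) and Rbfox3 (1 of 2). On Nova1, Rbfox1, Celf2, Elavl2 and Elavl4 there was 0 overlap.

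For each site an exact permutation test of genotype within sex, two-sided, compared the number of libraries with an enriched cluster. No site passed after adjustment over all sites of an assay and region, in the members or elsewhere (0% called). At an unadjusted exact p under 0.05 there were 0 of 54 member sites for TDP-43 in striatum, 1 of 88 in cortex, 4 of 50 for m6A in striatum and 3 of 48 in cortex, against 1105 of 18561, 1577 of 37173, 1221 of 40985 and 1177 of 37888 over all genes. The smallest p the design allows is 0.000408, for sites separated fully by genotype, of which there were 9, 24, 47 and 40 over all genes in the same order. Over so many sites, a single site at that p cannot pass the adjustment by itself. The lack of calls therefore does not decide whether a member site differed.

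The site with the largest contrast in cortex was an m6A site in the Rbfox2 3′ UTR at chr15:77081369-77081505, minus strand, 834 bases past the stop codon. It was enriched in 8 of 8 R6/2 libraries and in 1 of 8 NT libraries (exact p = 0.00204, adjusted p = 0.639). It was listed in all 16, with a log2 fold over input of 0.49 to 0.86 in R6/2 (median 0.59) and 0.16 to 0.66 in NT (median 0.28). So the enrichment was shallow in both genotypes and crossed the threshold in all 8 R6/2 libraries and 1 NT library. In striatum the site was enriched in 6 R6/2 and 4 NT libraries, and in the ASO experiment in 0 of 3 ASO and 0 of 3 PBS libraries. The printed Rbfox2 m6A window, with UGACU, comes from it.

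A pair of Nova2 sites had the same direction in cortex. The m6A site in its CDS at chr7:18957967-18958113, plus strand, was enriched in 8 R6/2 libraries and 3 NT libraries (exact p = 0.0306), with log2 folds of 0.52 to 1.01 in R6/2 and 0.39 to 0.72 in NT. In striatum it was enriched in 6 R6/2 libraries and 1 NT library (exact p = 0.0469). No DRACH lies within this site, in its cortical or its striatal extent. The site in its 3′ UTR at chr7:18963906-18964002, with the UAACU and GGACA of the printed window, was enriched in 5 R6/2 libraries and 0 NT libraries in cortex (exact p = 0.0306), and in 4 R6/2 and 2 NT libraries in striatum.

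In the striatum Celf2 had sites in opposite directions. Its 5′ UTR site at chr2:7185472-7185510, minus strand, was enriched in 0 of 8 R6/2 and 6 of 8 NT libraries (exact p = 0.00612, adjusted p = 1.0). It was listed in 6 R6/2 and 8 NT libraries, and the median log2 fold where listed was 0.84 in R6/2 and 1.03 in NT, so the contrast lies in passing the threshold more than in the fold. In cortex it was enriched in 2 R6/2 libraries and 1 NT library. Its 3′ UTR site at chr2:6542868-6542941 was enriched in 7 R6/2 and 2 NT libraries (exact p = 0.0469). Rbfox3 had a site near the end of its 3′ UTR, chr11:118489809-118489879, minus strand, enriched in 1 R6/2 and 6 NT libraries (exact p = 0.0469), with log2 folds of -0.20 to 0.45 in R6/2 and 0.23 to 0.57 in NT. In cortex the overlapping site was enriched in 1 R6/2 and 5 NT libraries (exact p = 0.12). The printed Rbfox3 m6A window is its last part, toward the 3′ end.

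The higher count of Elavl3 in TDP-43 libraries was not carried by a single site. Of its 11 sites in cortex, 9 lay in the 3′ UTR and 2 in the 5′ UTR. The widest contrast, at chr9:22017463-22017611, minus strand, was 7 R6/2 and 3 NT libraries (exact p = 0.12), with a median log2 fold of 0.70 in R6/2 and 0.49 in NT. The site beside the stop codon, chr9:22018380-22018498, and one at chr9:22015774-22015877 were enriched in all 8 R6/2 and all 8 NT libraries. Of 7 sites in striatum, the one in the 5′ UTR, chr9:22051879-22052011, was enriched in 8 R6/2 and 5 NT libraries (exact p = 0.214), and the site beside the stop codon in 7 R6/2 and 8 NT libraries.

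**Figure D5:**
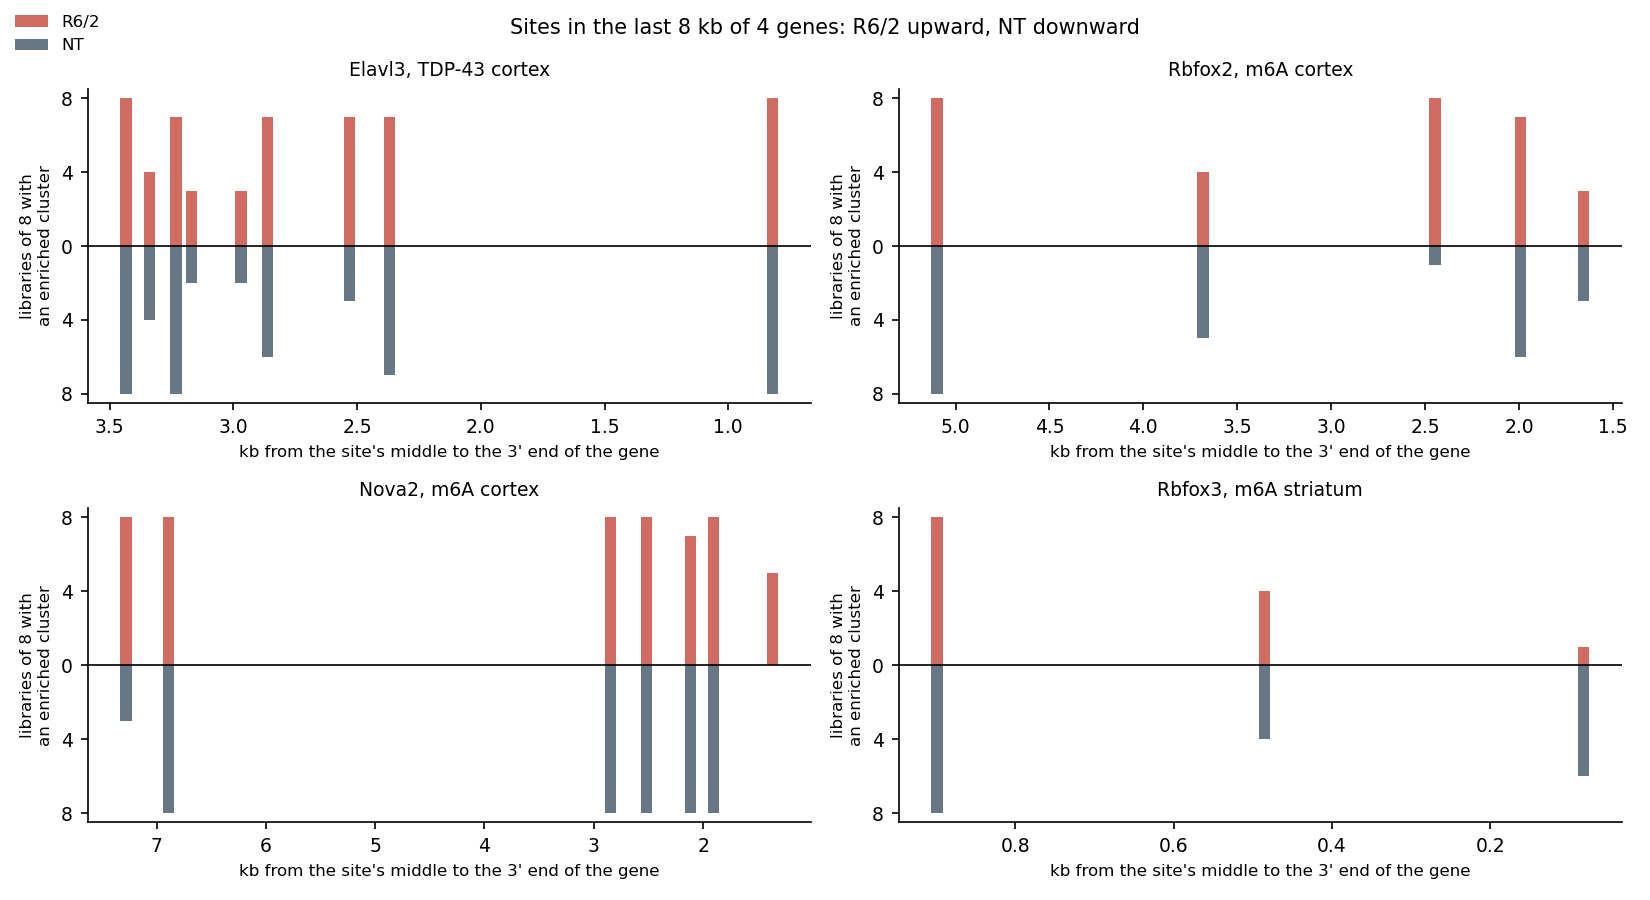
Number of libraries of 8 with an enriched cluster at each site in the last 8 kb of Elavl3 (TDP-43, cortex), Rbfox2 and Nova2 (m6A, cortex) and Rbfox3 (m6A, striatum), with R6/2 drawn upward in red and NT downward in dark blue against the distance in kb from the 3′ end of the gene. Elavl3 has sites with 8 libraries in both genotypes, and the Rbfox2 site with 8 R6/2 libraries and 1 NT library stands apart.

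In the ASO experiment 37 sites lay in the members, each enriched in 3 or more of the 6 libraries, and 2 of them were enriched in every library of 1 treatment and in none of the other, against 4.3% of 31138 sites of all genes. The Rbfox2 3′ UTR site at chr15:77080893-77081014, minus strand, was enriched in 3 ASO and 0 PBS libraries, with a median log2 fold of 1.27 in ASO and 0.32 in PBS. The Rbfox3 5′ UTR site at chr11:118909498-118909549, minus strand, was enriched in 0 ASO and 3 PBS libraries and was not listed in ASO. An exact permutation test of 3 against 3 cannot go below 0.1.

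Between the regions of NT mice, 4 of 7 members tested changed on TDP-43, Elavl2, Nova2 and Celf4 higher and Rbfox1 lower in cortex. The median gene had a log2 change of 0.645 in cortex minus striatum, or 0.33 when libraries were scaled by their total, and the median of 7 members was 0.469. Over all genes 51.4% of 3277 were called, 42.5% as higher in cortex and 8.97% as lower. The 4 of 7 members called are thus close to the share called in either direction. Elavl2 was higher, with lowest, median and highest values of 1.49, 2.10 and 2.81 enriched clusters in cortex, normalized over all TDP-43 libraries of both regions, against 0, 0 and 1.16 in striatum, a log2 change of 1.83 (SE 0.33, adjusted p = 0.000245), and the regions did not overlap. Nova2 had 9.71, 13.4 and 16.1 in cortex, against 3.40, 9.30 and 10.3 in striatum (0.62, SE 0.17, adjusted p = 0.00582). Celf4 had 10.98, 14.4 and 15.2 in cortex, against 8.15, 9.48 and 10.2 in striatum (0.49, SE 0.11, adjusted p = 0.00175), again without overlap. The share of all genes without overlap between the regions was not counted. Scaled by the library total, the calls of Nova2 and Celf4 were lost, with log2 changes of 0.24 and 0.11. Rbfox1 was lower in cortex, with 2.51, 4.50 and 7.88 there, against 5.43, 7.11 and 13.6 in striatum (-0.65, SE 0.22, adjusted p = 0.0217). By all listed clusters the Rbfox1 change was 0.13 (adjusted p = 0.688), in the opposite direction. Rbfox2, Elavl3 and Rbfox3 did not pass, with 0.47, 0.33 and -0.23, and Nova1, Celf2 and Elavl4 were not tested.

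For m6A, 2 of 9 members were called between the regions of NT mice, against 18.7% of 9272 genes, 8.94% as higher in cortex and 9.77% as lower. Celf4 was higher, with 24.6, 28.1 and 33.4 normalized enriched m6A clusters in cortex, against 18.6, 22.4 and 31.1 in striatum (log2 change 0.31, SE 0.09, adjusted p = 0.0123). Celf2 was lower, with 2.34, 5.76 and 7.90 in cortex, against 6.03, 8.26 and 13.5 in striatum (-0.65, SE 0.19, adjusted p = 0.0203). For both genes the regions overlapped, and by all listed clusters the Celf2 change was 0.15 (adjusted p = 0.374), in the opposite direction. Rbfox1 had a change of -0.90 (SE 0.38, adjusted p = 0.113) and Elavl2 of 0.65 (SE 0.30, adjusted p = 0.15). Rbfox3, Nova2, Nova1, Rbfox2 and Elavl3 had -0.33, 0.29, 0.13, 0.12 and 0.02, and Elavl4 was not tested. The markers separated the regions as labelled, with all 10 medium spiny neuron markers lower and all 8 excitatory markers higher in cortex. On m6A, 6 of 7 oligodendrocyte markers were lower in cortex and 0 of 4 tested pan-neuronal markers were called. On TDP-43, 4 of 5 tested oligodendrocyte markers were lower in cortex, and of 6 pan-neuronal markers 4 were higher and 1 was lower. Their part in the members' changes was not tested.

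Limma called 0 members, and 0 genes at all, for a difference of the R6/2 effect between females and males, with 0, 1, 1 and 1 members at an unadjusted p under 0.05 for TDP-43 in striatum and cortex and m6A in striatum and cortex, and 197, 220, 580 and 420 genes. Nova2 on TDP-43 in cortex had a difference of -0.53 (SE 0.17, adjusted p = 0.651).

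A wider list of 25 other splicing regulators, among them Celf1, Ptbp1 to Ptbp3, the Mbnl, Khdrbs and Srrm genes, Qki and Msi1, was counted in the same fits. For TDP-43, 0 of 5 tested were called in striatum and 0 of 8 in cortex in R6/2 against NT, in limma and also at an unadjusted p under 0.05, against 13.6% and 7.1% of all genes. For m6A, 2 of 17 were called in striatum, against 9.64% of all genes. Celf5 was lower in R6/2 (-0.48, SE 0.09, adjusted p = 0.000656) and Ptbp3, a paralog of the repressor PTBP1, was higher (0.91, SE 0.23, adjusted p = 0.0138). In cortex 1 of 14 was called, against 6.17% of all genes, and this was Rbm24, higher in R6/2 (0.78, SE 0.20, adjusted p = 0.0186). With the ASO 4 of 16 were called, against 30.2% of all genes. Celf5 and Mbnl2, a muscleblind protein that sets adult splicing in brain, were higher (0.30 and 0.31), and Celf3 and Khdrbs1 (Sam68) were lower (-0.72 and -1.11). On intronic clusters 0 of 2 were called in striatum, also at an unadjusted p under 0.05, against 39.9% of all genes, and in cortex 1 of 6 was called, against 13.8%. This was Khdrbs3, lower in R6/2 (-0.48, SE 0.13, adjusted p = 0.0182).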

How the data were processed

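TDP-43 and m6A eCLIP-seq libraries of mouse striatum and cortex were analysed from the cluster lists of 70 IP libraries. Per the study's methods, the authors' commercial pipeline called clusters with CLIPper and scored each against the library's own input. The deposited −log10 p-value of each cluster was made by the authors from IP and input reads, and the deposited log2 fold is that of IP over input, with the base, which is not stated, taken as 2. Genome coordinates are mm10, per the submitters' processing notes, and the aligner is not given in the sources used here. Read depth is not in the lists, so the number of enriched clusters (4929 to 99040 a library) limits the precision.

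Clusters were given to GENCODE vM21 genes by midpoint and strand. Clusters with a p of 0.001 or less were counted per gene, divided by median-ratio size factors and fitted as log2(value + 0.5) with limma 3.58.1 in R 4.3.3 (trend, sex as covariate, none for the ASO), over genes with 2 or more in at least 50% of libraries. Listed intronic clusters used 4 added and a minimum of 10. p-values were adjusted by Benjamini-Hochberg over all genes, and called means under 0.05. Scripts ran in Python 3.11.15 with pandas 2.3.3 and NumPy 2.4.6 and were tested on simulated data. All 10 members were named in each R6/2, ASO and regional comparison, most of those called or among the 3 largest changes with values per library or ranges, as were other regulators that were called. Differences of the R6/2 effect between regions or sexes are given mainly by counts. Members and gene lists were chosen with earlier results of these data known. Alternatives were other thresholds, normalizations, covariates and left-out libraries.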

Additional observations from a re-analysis of the deposited data

Results flagged for a closer look

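Each group of 8 libraries was searched for a highest or lowest library that stood far from its group (Dixon's test), in 156 groups, of which 13 did so, and chance gives about 1 in 20. Of the 13, 4 were in NT male 1 of the TDP-43 striatum, the library with 4929 enriched clusters. There Nova2 and Rbfox2 had 2.52 normalized enriched clusters each, against 5.9 to 7.88 and 10.2 to 16.7 in the other NT libraries, and Rbfox1 and Rbfox3 had 10.1 and 15.1, against 4.08 to 6.11 and 4.55 to 9.19. Celf4 in TDP-43 cortex stood out in R6/2 female 4, with 32.4 normalized enriched and 162 listed clusters, against 15.8 to 23 and 95.5 to 123 in the other R6/2 libraries.

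For m6A in R6/2 striatum, Rbfox3 had 158 listed clusters in male 3 (the others 25.2 to 80.7), Rbfox1 5.14 enriched clusters in female 3 (0 to 2.31) and Celf4 19.3 listed clusters in male 1 (25.4 to 29.2). Elavl2 had 4.29 enriched m6A clusters in NT male 4 of the striatum (0.932 to 2.04). For m6A in cortex, Nova1 had 31.1 listed clusters in R6/2 female 1 (21.6 to 25.6), Celf4 had 22.7 in NT female 4 (27.6 to 31.6) and Elavl2 had 15.3 in NT female 3 (7.97 to 11.4).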

How the results depend on the processing

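Of 920 member log2 changes under other settings, 865 kept their side of the threshold, 32 lost the call and 17 gained one. A further 6, called in either fit, reversed direction. A change of direction without a call in either fit was counted as kept. Leaving out 1 library kept the side of the threshold for 756 of 774. The reversed ones came from counting listed clusters (Rbfox3 m6A in R6/2 striatum 0.10, Rbfox1 TDP-43 and Celf2 m6A between regions 0.13 and 0.15), bases (ASO Elavl4 -0.12 and Rbfox2 -0.057) or stretches (ASO Elavl3 -0.33). The causes were not tested. With 3 or more on the log2 fold, 0 members were called in TDP-43 striatum and cortex, m6A striatum, ASO and m6A between regions, and 2 in TDP-43 between regions. The count was 0 with a p of 1e-05 or less in both TDP-43 comparisons, by bases or by stretches (added after seeing the data) in TDP-43 cortex, m6A striatum and ASO, with the intronic share as covariate, males only or libraries under 30% intronic (added for cortex) in both TDP-43 comparisons, in females only or by listed clusters in TDP-43 cortex, and in males only or without sex in m6A striatum. m6A striatum gave 2 calls by listed clusters or with 4 added and 3 by quantile normalization, and m6A between regions gave 4 by listed clusters. On introns, striatum gave 2 with totals as size factor and 0 under 30% intronic, and cortex gave 0 with totals.

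The replicate numbers were not used as pairs. Correlations between same-numbered libraries ran from -0.457 to 0.46, with 0.34 and 0.46 for males 2 and 3 of TDP-43 striatum. Libraries of different number were not compared, so whether the numbers mark something shared was not tested. With the replicate block 0 members were called in TDP-43 cortex, 2 in m6A striatum (Rbfox1 gained) and 2 on striatal introns (Celf2 gained). Without 1 library the counts were 1 to 1 in TDP-43 striatum, 0 to 1 in TDP-43 cortex (0 without NT female 4), 1 to 2 in m6A striatum (2 without NT male 1, R6/2 male 1 or 2, NT female 1, or R6/2 female 1 or 3), 0 to 1 in m6A cortex (1 without NT male 2), 2 to 3 for the ASO (Elavl4 lost without ASO 2, ASO 3 or PBS 2), 0 to 1 on striatal introns (0 without NT male 3, R6/2 male 3 or R6/2 male 4) and 1 to 1 on cortical introns. Scaling by totals moved the median gene by 0.34 on striatal introns, 0.12 on cortical introns and -0.32 between regions for TDP-43. Listed clusters were not run for the ASO, since a treatment's libraries share intervals.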
